A study of Mus musculus with 13 samples.

Results

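Fatty acid and cholesterol metabolism was followed through the development of the mouse submandibular gland with 50 genes, taken by symbol for their known role, in a choice made with earlier results of these data known. Of these members, 12 belong to fatty acid synthesis, 4 to acyl-CoA activation, 9 to fatty acid oxidation, 9 to storage and lipolysis, 5 to uptake and binding and 5 to sterol synthesis, and 6 are regulators. All 50 were among the 23364 genes listed for every sample, and 48 were among the 14650 genes that reached 1 FPKM (fragments per kilobase of gene, scaled to the reads of the sample) in at least 1 sample and were tested. Cpt1b, the muscle form of the mitochondrial carnitine palmitoyltransferase, reached at most 0.62 rescaled FPKM, in P5 replicate 1. Hmgcs1, the cytosolic HMG-CoA synthase of the sterol pathway, was listed at 0 in all 13 samples, so no level or fold change is given for it.

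Glands of C57BL/6 mice without any transgene or treatment were sequenced in 13 bulk samples at 6 time points. There were 3 samples at embryonic day E14.5, each a pool of glands from 3 animals, and 2 samples each at E16.5 and E18.5, each a pool from 2 animals. There were also 2 samples each at postnatal day 5 (P5), 4 weeks (4wk) and 12 weeks (12wk), the last 2 ages from male mice, while sex was not determined in the embryos and the P5 mice. The 7 embryonic samples, the 2 P5 samples and the 4 adult samples (4wk and 12wk) were compared as stages, a grouping the methods also use. Age differences within a stage thus add to its spread, and the difference in sex cannot be told apart from stage. Levels are given as rescaled FPKM, the deposited FPKM divided by 1 factor per sample (0.617 to 1.38) that brings the genes of all samples to a common median ratio.

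Fatty acids are built from acetyl-CoA by ATP citrate lyase, acetyl-CoA carboxylase and fatty acid synthase, then lengthened and desaturated, activated to acyl-CoA, and either esterified into triglyceride droplets or carried into mitochondria and oxidised. Cholesterol is made from the same acetyl-CoA by a separate chain of enzymes, and the transcription factors SREBP-1 and SREBP-2 with their anchor INSIG1 set the level of both pathways. Fat cells express much of this gene set at very high levels, and submandibular glands lie in fat that can remain attached at dissection.

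Depth, recovered from the size of 1 read in the FPKM values, was 17345305 to 48314162 reads on genes in the embryonic and P5 samples, 21820923 and 28431454 (12wk), and only 5817293 and 7957918 (4wk), where 1 read on a gene of 1 kilobase was worth 0.241 and 0.204 rescaled FPKM. The salivary identity of the glands was checked with 2 lists. The 7 acinar markers, Amy1 and Muc19 among them, summed to 29.2 to 274 rescaled FPKM at E14.5, 1260 to 1290 at E16.5 and 7940 to 68000 from E18.5 onwards. The 12wk samples were both ends of the last range, and Bpifa2 alone was at 5531 and 53410 in them. The 6 markers of the granular ducts summed to 8.91 to 112 in embryonic, 515 to 579 in P5 and 34300 to 62000 in adult samples. Of these, Ren1 was at 0 in every sample but 12wk replicate 1 (0.0946). The adult ages differed in genes of the neighbouring salivary glands. Amy1, an amylase of the parotid gland, was at 14 and 18.7 rescaled FPKM at 4wk and at 917 and 10050 (12wk), while Muc19, a mucin of the sublingual gland, was at 144 and 133 (4wk) and at 0.0369 and 3.46 (12wk). Their part in the differences between 4wk and 12wk was not tested.

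A pair of libraries stood highest in fat genes, P5 replicate 1 and 4wk replicate 1. Ucp1, the uncoupling protein that defines brown fat, was at most 0.0591 rescaled FPKM in the 5 samples of E14.5 and E16.5, at 4.37 and 0.278 (E18.5), at 285 and 57.4 (P5), at 149 in 4wk replicate 1 and listed at 0 in 4wk replicate 2, and at 0 and 0.440 (12wk). Adipoq, the adipocyte hormone adiponectin, was absent or at most 0.0788 up to E16.5 and reached 14.9 and 7.52 (E18.5), 87.3 and 26.8 (P5), 66.8 and 2.48 (4wk) and 5.19 and 8.57 (12wk). The 13 adipocyte markers summed to 3.81 to 5.64 at E14.5, 21.4 to 25.4 at E16.5, 84.4 to 241 at E18.5, 228 to 743 at P5, 95.3 to 1030 at 4wk and 130 to 189 at 12wk. At least 1 FPKM was reached by 2 to 3 of the 13 at E14.5, by 12 to 13 at P5 and by 7 to 10 in the adult. The 6 brown fat markers summed to 3.79 to 4.73, 13.3 to 19.7, 8.05 to 65.3, 161 to 722, 61.9 to 597 and 49.6 to 51.4 at the 6 ages in turn, with Elovl3 between 0 and 0.288 in every sample. Most of the lowest adult brown fat sums was Cox7a1 alone, at 56.2 in 4wk replicate 2 and 41.2 and 41.8 at 12wk. Only 2 of the 6 brown fat markers reached 1 FPKM in these 3 samples. In each of P5 and 4wk, replicate 1 held the higher adipocyte and brown fat sums, as the plot of fat markers beside 6 members shows. Counts of members are therefore given with all 13 samples and again without these 2 libraries, a choice made after their Ucp1 levels were seen. P5 replicate 2, which stays in, held Ucp1 at 57.4 and brown fat markers summing to 161, both above all other samples that stay. The reduced set is thus not free of fat genes.

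**Figure D1:**
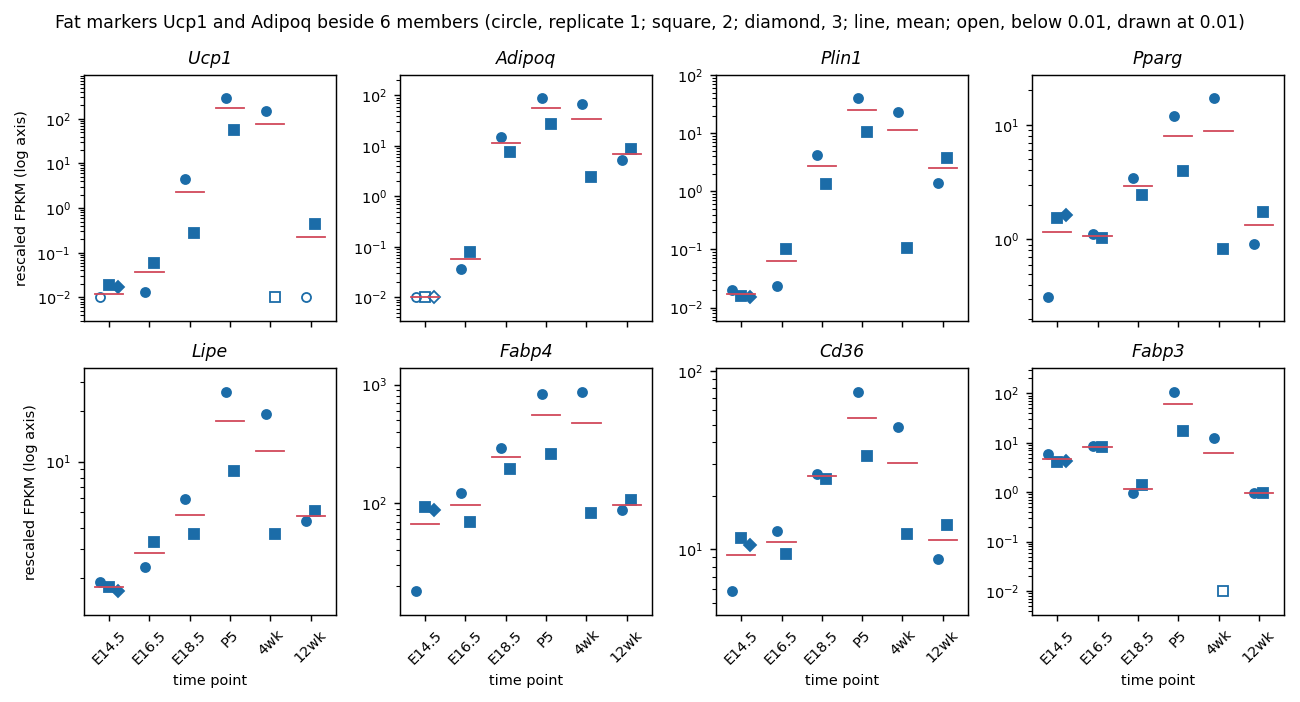
Rescaled FPKM (log axis) of the fat markers Ucp1 and Adipoq and of 6 members at the 6 time points, with 1 symbol per sample and a line at the mean, open symbols standing for values below 0.01. In all 8 panels the circle of replicate 1 lies above the square of replicate 2 at both P5 and 4wk, and the 12wk samples lie far below the 4wk replicate 1 sample.

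Between the embryonic and adult stages, 21 of the 48 tested members were called higher and 3 lower, where a call needs a change of 1 or more on the log2 scale, up or down, with an adjusted p below 0.1 (limma, Benjamini-Hochberg over the 14650 genes). Over all tested genes, 13.8% were called higher and 14.7% lower. The median log2 fold change was 0.71 over the members and -0.08 over all genes. In bulk samples, a change in the number of cells of a type, such as fewer fat cells, and less RNA per cell cannot be told apart. In 16 of the 21 and in all 3, the adult and embryonic samples did not overlap. Overlap was not counted over all called genes, so these counts are not read as a trait of the members. Without the 2 fat-rich libraries 12 members were called higher, all of them among the 21, and 5 lower, beside 14.1% and 14.54% of all genes, and the median over the members was 0.51 beside -0.06. On the deposited scale, where the median of all genes was shifted by -0.75 between the stages, 6 members were called higher and 10 lower, beside 5.58% and 38.0% of all genes, and the members' median was -0.13. The 6 that passed on every one of these scales and sample sets were Acacb, Ehhadh, Elovl7, Lpin1, Pnpla2 and Scd1, and the 3 that were lower on all were Fads1, Fads2 and Sqle.

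The roles differed in their counts. These stand beside 13.8% higher and 14.7% lower of all genes (14.1% and 14.54% without the 2 libraries, 5.58% and 38.0% on the deposited scale). Calls higher and lower were 3 and 2 of 12 in fatty acid synthesis, 2 and 0 of 4 in acyl-CoA activation, 6 and 0 of 8 in oxidation, 6 and 0 of 9 in storage and lipolysis, 0 and 0 of 5 in uptake and binding, 0 and 1 of 4 in sterol synthesis and 4 and 0 of 6 among the regulators. Median log2 fold changes ran from -0.49 in both uptake and sterol synthesis to 1.2 in oxidation and 1.27 in storage. Without the 2 libraries, storage kept 2 calls higher with a median of 0.66, and oxidation kept 4 with a median of 1.01, while uptake gained 2 calls lower. Deposited values gave calls of 3 and 3 in synthesis, 0 and 0 in activation, 1 and 0 in oxidation, 2 and 0 in storage, 0 and 3 in uptake, 0 and 3 in sterol synthesis and 0 and 1 among the regulators. Whether the roles differ from each other was not tested.

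**Figure D2:**
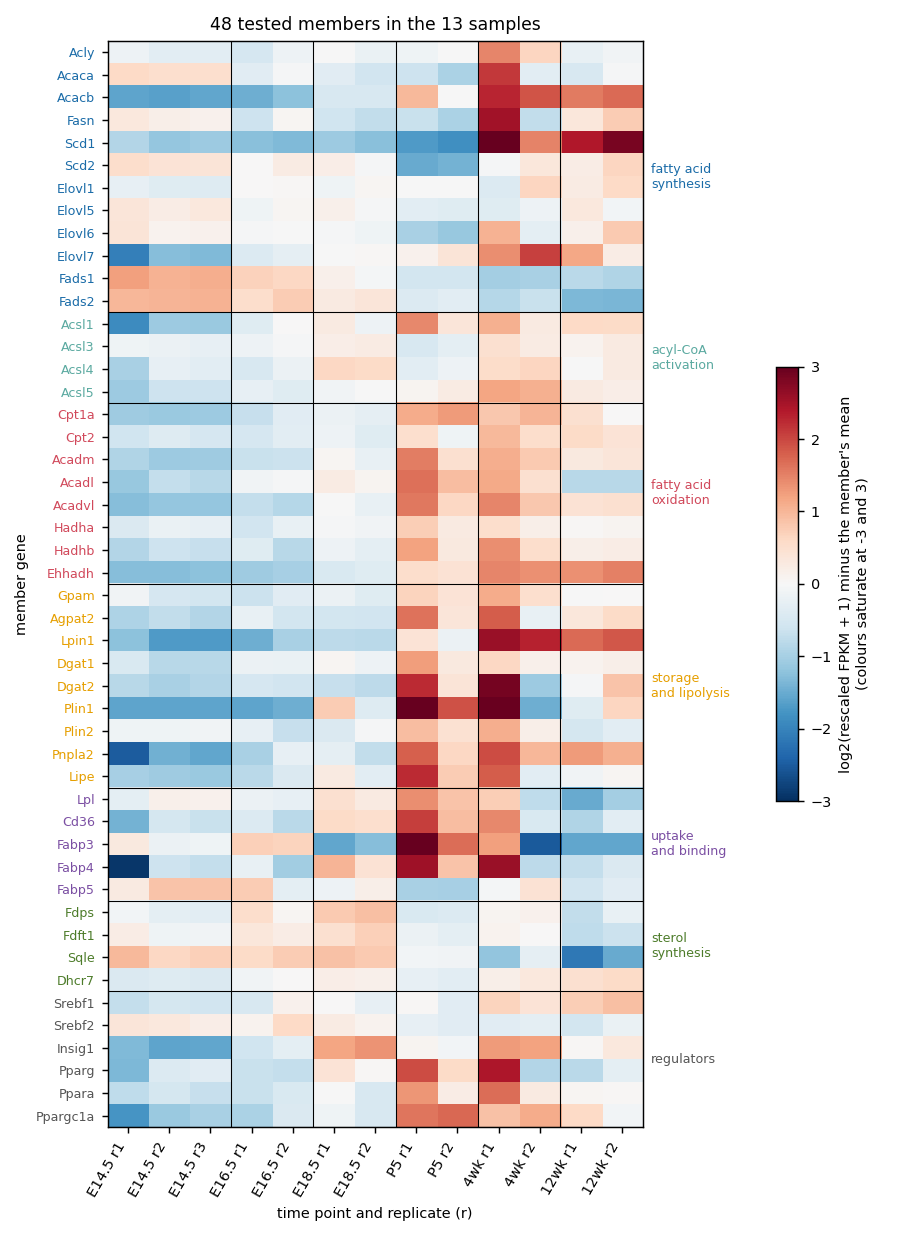
Each row is a tested member, grouped and coloured by role, each column a sample in order of age, and the colour the log2(rescaled FPKM + 1) minus the member's mean over the 13 samples, saturating at -3 and 3. The columns of P5 replicate 1 and 4wk replicate 1 are the reddest in most rows of storage and uptake, while Scd1, Acacb, Ehhadh and Lpin1 are red in all 4 adult columns and Fads1, Fads2 and Sqle turn from red to blue with age.

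**Figure D3:**
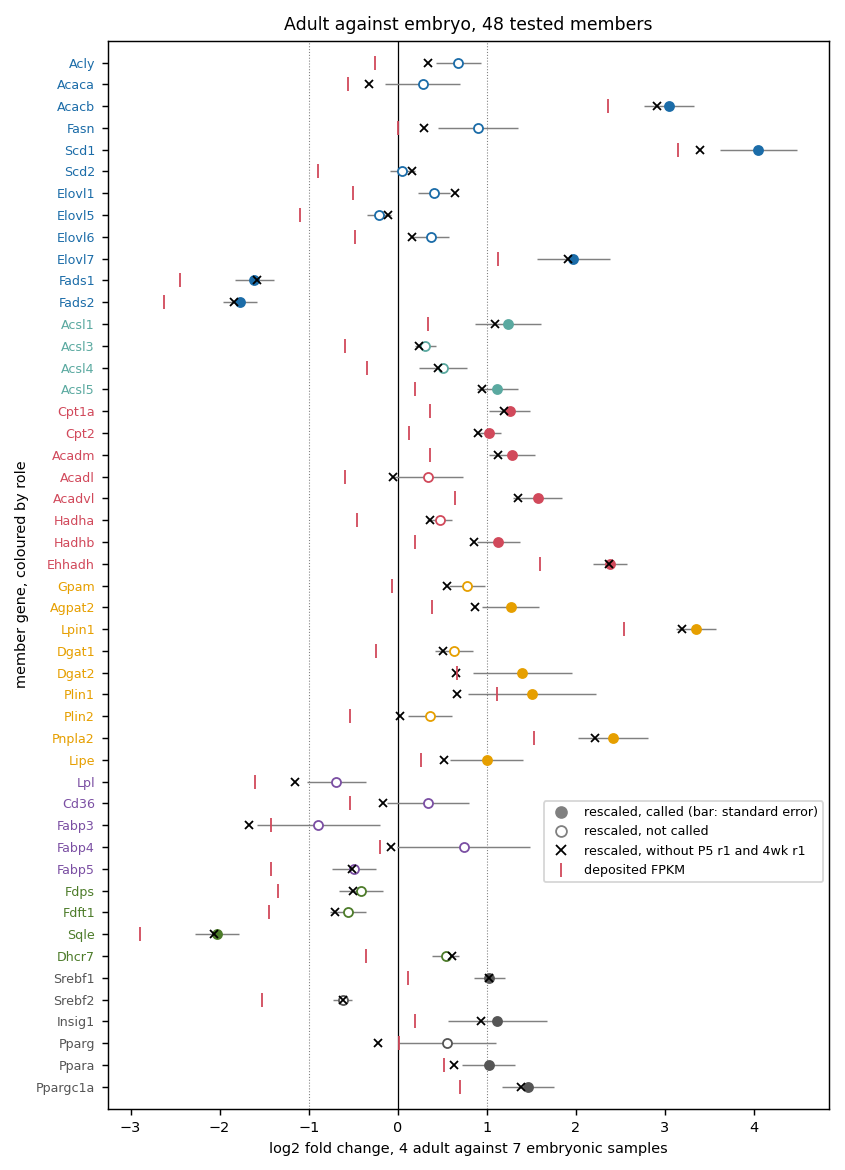
Log2 fold change of each tested member, 4 adult against 7 embryonic samples, with circles and standard error bars for rescaled FPKM (filled where called), crosses for the fit without P5 replicate 1 and 4wk replicate 1, and red ticks for the deposited FPKM. The deposited values lie to the left of the rescaled ones in all 48 members, and the crosses lie furthest from the circles in Plin1, Fabp4, Fabp3, Pparg and Dgat2.

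Within fatty acid synthesis, the largest rise was that of Scd1, the stearoyl-CoA desaturase that makes oleate (chr19:44468941-44482199 of mm9, minus strand). Scd1 was at 7.58, 6.11 and 6.43 rescaled FPKM at E14.5, 5.62 and 5.38 (E16.5), 6.47 and 5.69 (E18.5), 3.88 and 3.40 (P5), 460.2 and 43.3 (4wk) and 82.9 and 113.8 (12wk). The embryonic and P5 samples thus formed a narrow low band, every adult sample lay above them, and the 4wk samples were 10.6-fold apart. Its log2 fold change was 4.05 ± 0.43 (SE) from embryo to adult (limma, adjusted p = 3.8e-06), and 3.40 without the 2 libraries (adjusted p = 8.3e-07). From P5 to adult it was 4.68 ± 0.60 (adjusted p = 0.00014).

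Acacb, the acetyl-CoA carboxylase on the mitochondrial membrane, whose product malonyl-CoA inhibits carnitine palmitoyltransferase, was chosen for description after its values were seen. It was at 0.364, 0.316 and 0.378 (E14.5), 0.480 and 0.735 (E16.5), 1.93 and 1.92 (E18.5), 7 and 3 (P5), 18.8 and 14 (4wk) and 10.9 and 12.3 (12wk). The samples of the 3 stages did not overlap, with P5 between embryo and adult. Its log2 fold change from embryo to adult was 3.05 ± 0.28 (limma, adjusted p = 9.4e-07), and 2.91 without the 2 libraries. The cytosolic carboxylase Acaca did not pass (0.28 ± 0.42, adjusted p = 0.58), turned to -0.32 without the 2 libraries and to -0.56 on the deposited scale, and was at 39.3 in 4wk replicate 1 and between 5.65 and 8.03 in the other adult samples.

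Fasn, the fatty acid synthase (chr11:120667254-120685492 of mm9, minus strand), was at 23.8, 21.8 and 20.9 (E14.5), 12.1 and 20.1 (E16.5), 12.3 and 11.1 (E18.5), 11.7 and 9.47 (P5), 113.8 and 11.1 (4wk) and 24.4 and 32.8 (12wk). One library, 4wk replicate 1, was far above all others, both 12wk samples lay just above the highest embryonic one, and 4wk replicate 2 lay among the lowest. Fasn was not called from embryo to adult (0.90 ± 0.45, limma, adjusted p = 0.098) and its log2 fold change was 0.30 without the 2 libraries and -0.0014 on the deposited scale. Its promoter is shown because fat-forming genes are textbook targets of SREBP-1 acting with NF-Y, which binds CCAAT. The window runs from 250 bases before to 50 after the RefSeq start (GRCm38.p6, chr11:120824498-120824797, minus strand), and capitals mark CCAAT on either strand, of which there are 3, with 1 pair overlapping.
Fasn promoter: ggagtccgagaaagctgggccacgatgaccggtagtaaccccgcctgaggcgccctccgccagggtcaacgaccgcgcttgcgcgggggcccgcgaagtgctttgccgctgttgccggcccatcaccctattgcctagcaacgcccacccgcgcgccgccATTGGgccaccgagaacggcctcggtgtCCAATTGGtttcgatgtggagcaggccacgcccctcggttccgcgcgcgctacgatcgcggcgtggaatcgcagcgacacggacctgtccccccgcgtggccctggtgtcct
Of the 50 members, 38 had a window in this RefSeq table, and CCAAT was present in 19 of them (50%), beside 41.1% of the 27025 genes in the table. TCACNCCAC, a form of the sterol regulatory element, was present in 3 (7.9%, beside 1.4%), those of Acsl1, Ehhadh and Hmgcs1. CACGTG was present in 5 (13.2%, beside 8.1%), and the direct repeat of AGGTCA spaced by 1 base, which PPAR binds with RXR, in 0, beside 13 genes of the whole table. All were searched on both strands, and such matches describe letters and not binding.

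The desaturases of polyunsaturated fatty acids went the other way. Fads2, the delta-6 desaturase, was at 36.8, 37.2 and 37.6 (E14.5), 26.0 and 31.1 (E16.5), 21.8 and 23.2 (E18.5), 13.1 and 14.2 (P5), 9.42 and 10.8 (4wk) and 6.42 and 6.30 (12wk). The samples of successive ages did not overlap, and the lowest levels were those at 12wk. Its log2 fold change was -1.77 ± 0.19 from embryo to adult (limma, adjusted p = 3.4e-06) and -1.84 without the 2 libraries. Fads1, the delta-5 desaturase that lies beside Fads2 on chromosome 19, fell by 1.61 on the log2 scale (SE 0.22, adjusted p = 3.2e-05), from 11.4 to 29.2 rescaled FPKM in the embryo to 5.29 to 6.28 in the adult.

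Scd2 and Elovl6 had their lowest values at P5. Scd2, the desaturase of the embryo and brain, was at 81.9 to 122.5 in the 7 embryonic samples, 28.8 and 30.9 (P5) and 82.2 to 132.5 in the adult, so that the P5 samples alone stood below. It fell from embryo to P5 by 1.72 on the log2 scale (limma, adjusted p = 0.00019) and rose by 1.76 ± 0.20 from P5 to adult (adjusted p = 5.5e-05), with no call between embryo and adult (0.05 ± 0.14, adjusted p = 0.80). Elovl6, which lengthens palmitate, fell by 1.13 to P5 (adjusted p = 0.016) and rose by 1.49 ± 0.29 from P5 (adjusted p = 0.0025). These 4 calls held without the 2 libraries, and that of Elovl6 from P5 to adult was lost on the deposited scale (0.90). Elovl7, an elongase of very long saturated chains, rose from embryo to adult (1.97 ± 0.41, adjusted p = 0.00099), while Elovl1, Elovl5, Acly and Acaca were not called in any stage comparison of rescaled values.

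Among the acyl-CoA synthetases, which activate fatty acids, Acsl5 was at 19.97, 28.1 and 27.8 (E14.5), 36.5 and 33.9 (E16.5), 40.5 and 43.0 (E18.5), 46.2 and 52.0 (P5), 100.5 and 92.8 (4wk) and 52.4 and 50.3 (12wk). Both 4wk samples were above all others, and no adult sample overlapped the embryo. The log2 fold change from embryo to adult was 1.12 ± 0.23 (limma, adjusted p = 0.00096), but it fell short of the threshold at 0.95 without 4wk replicate 1, at 0.99 without 4wk replicate 2 and at 0.19 on the deposited scale. Acsl1 also rose (1.24 ± 0.37, adjusted p = 0.010), with overlapping samples, whereas Acsl3 (0.31) and Acsl4 (0.51) were not called.

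Of the 8 tested members of fatty acid oxidation, 6 were called higher in the adult. Ehhadh, the bifunctional enzyme of peroxisomal oxidation (chr16:21761360-21787917 of mm9), was at 1.21, 1.22 and 1.31 (E14.5), 1.57 and 1.70 (E16.5), 2.90 and 3.21 (E18.5), 6.79 and 6.33 (P5), 13.8 and 12.9 (4wk) and 12.9 and 14.3 (12wk). Replicates were close at every age and no 2 of the stages overlapped. The log2 fold change was 1.44 ± 0.24 from embryo to P5 (limma, adjusted p = 0.0027) and 2.38 ± 0.19 from embryo to adult (adjusted p = 2.4e-07), with 1.40 and 2.37 without the 2 libraries.

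Cpt1a, which commits fatty acids to mitochondrial oxidation and was chosen after its values were seen, was highest at P5, at 44.2 and 49.9, against 8.72 to 17.8 in the embryo, 36.0 and 41.9 (4wk) and 28.4 and 20.2 (12wk). It rose from embryo to P5 by 1.87 ± 0.30 (limma, adjusted p = 0.0023; 1.95 without the 2 libraries) and was 1.26 ± 0.23 higher in the adult than in the embryo (adjusted p = 0.00037). P5 replicate 1 was the lower of the P5 samples for Cpt1a, unlike for the acyl-CoA dehydrogenases. The medium-chain and very long-chain dehydrogenases Acadm (1.28) and Acadvl (1.57), the inner-membrane transferase Cpt2 (1.02) and Hadhb (1.13) were also called higher from embryo to adult, and Hadha (0.47) and the long-chain dehydrogenase Acadl (0.34) were not. Cpt2 (0.90) and Hadhb (0.86) fell short of the threshold without the 2 libraries, and on the deposited scale so did Cpt1a (0.36), Acadm (0.36), Acadvl (0.64), Cpt2 (0.13) and Hadhb (0.19).

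Acadl was the only one of the 8 called lower in the adult than at P5 (-1.30 ± 0.53, limma, adjusted p = 0.090), at 191.8 and 115.4 (P5), 134.0 and 85.0 (4wk) and 33.4 in both 12wk samples. Without the 2 libraries its log2 fold change was -1.32 and the adjusted p was 0.19. From 4wk to 12wk it fell by 1.65 (adjusted p = 0.0018), and by 1.32 without 4wk replicate 1, which remained a call.

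Hadha and Hadhb encode the 2 subunits of the mitochondrial trifunctional protein and start back to back, 273 bases apart on opposite strands, so that their 300-base promoter windows share 228 bases. Their shared promoter is shown from the side of Hadhb (RefSeq, GRCm38.p6, chr5:30155003-30155302, plus strand), in lower case throughout because none of the 4 motifs is in it.
Hadhb promoter: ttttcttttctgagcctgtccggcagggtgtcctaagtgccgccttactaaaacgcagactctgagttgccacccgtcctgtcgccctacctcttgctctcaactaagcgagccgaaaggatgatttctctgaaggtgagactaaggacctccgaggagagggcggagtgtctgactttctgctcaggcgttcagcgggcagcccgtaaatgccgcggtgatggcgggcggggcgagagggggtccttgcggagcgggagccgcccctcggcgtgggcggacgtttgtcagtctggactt
With this window in common, Hadha was at 30.2 to 43.8 in the embryo, 76.2 and 54.2 (P5) and 46.5 to 65.8 in the adult, and Hadhb at 41.9 to 70.3, 180.5 and 95.7, and 88.4 to 205.6. Neither gene's adult samples overlapped the embryonic ones. Whether the fold changes of the 2 genes differ was not tested.

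In storage and lipolysis, Lpin1, the phosphatidate phosphatase that makes diacylglycerol (chr12:16542475-16596576 of mm9), was at 1.88, 1.09 and 1.08 (E14.5), 1.47 and 2.44 (E16.5), 2.93 and 2.90 (E18.5), 7.99 and 5.01 (P5), 39.6 and 32.6 (4wk) and 20.9 and 23.6 (12wk). The stages did not overlap, and both 4wk samples lay above both 12wk samples. The rise from embryo to adult was 3.35 ± 0.23 (limma, adjusted p = 8.7e-08), 3.19 without the 2 libraries and 2.54 on the deposited scale. Pnpla2, the first lipase of triglyceride breakdown, rose by 2.42 ± 0.39 (adjusted p = 0.00014), from 2.82 to 17.3 in the embryo to 42.0 to 82.3 in the adult.

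The other 4 calls of storage were lost without the 2 fat-rich libraries. Plin1, the perilipin that coats the droplets of fat cells, was at 0.0202, 0.0159 and 0.0150 (E14.5), 0.0231 and 0.101 (E16.5), 4.17 and 1.32 (E18.5), 39.9 and 10.5 (P5), 23.0 and 0.106 (4wk) and 1.37 and 3.77 (12wk). The value of 4wk replicate 2 was about 1 read and lay among those of E16.5, and the adult and embryonic samples overlapped. Its log2 fold change was 1.51 ± 0.72 from embryo to adult (limma, adjusted p = 0.084) and 0.67 without 4wk replicate 1 (adjusted p = 0.35). Leaving out any 1 of the 5 samples of E14.5 and E16.5, or 12wk replicate 2, also ended this call, at adjusted p of 0.12 to 0.15.

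Lipe, the hormone-sensitive lipase, was at 1.90, 1.75 and 1.66 (E14.5), 2.32 and 3.29 (E16.5), 5.93 and 3.67 (E18.5), 26.1 and 8.73 (P5), 19.4 and 3.67 (4wk) and 4.38 and 5.01 (12wk). Only 4wk replicate 1 of the adult samples was above the highest embryonic one. The call (1.00 ± 0.41, limma, adjusted p = 0.048) was lost without 4wk replicate 1 (0.52) and without any of E14.5 replicates 1 to 3 or E16.5 replicate 1 (0.92 to 0.98). Dgat2 (1.40) and Agpat2 (1.27), which esterify fatty acids, lost theirs without the 2 libraries, at 0.66 and 0.87. From embryo to P5, 7 of the 9 storage members were called higher with all samples, beside 5.55% of all genes. Their median log2 fold change was 1.63, and 1.06 without P5 replicate 1 and 4wk replicate 1. That fit leaves 1 P5 sample, which is assumed to vary like the other groups. The summed adipocyte markers were at 3.81 to 241 in the embryo and 228 to 743 at P5, and the brown fat markers at 3.79 to 65.3 and 161 to 722. At 12wk the adipocyte sums were 130 to 189. Lpin1, 1 of the 7, was then at 20.9 and 23.6, above its P5 values of 7.99 and 5.01. Pnpla2, also 1 of the 7, was at 51.3 and 44.1 at 12wk and at 73.5 and 31.9 at P5. The part of fat cells in the result was not tested.

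Uptake and binding held no call between embryo and adult. Cd36, the fatty acid translocase of fat, muscle, macrophages and capillaries, was at 5.83, 11.6 and 10.5 (E14.5), 12.6 and 9.35 (E16.5), 26.3 and 24.9 (E18.5), 75.9 and 33.4 (P5), 48.4 and 12.2 (4wk) and 8.82 and 13.7 (12wk). Fabp4, the binding protein of fat cells and capillary endothelium, was at 18.1, 93.6 and 87.3, then 122.7 and 69.1, 291.4 and 194.1, 837.4 and 261.6, 862.8 and 83.2, and 87.0 and 105.3 at the same ages. Both had their highest values in P5 replicate 1 and 4wk replicate 1, and the other adult samples overlapped the embryo. The log2 fold change from embryo to adult was 0.34 ± 0.46 in Cd36 (limma, adjusted p = 0.54), and turned to -0.16 without 4wk replicate 1 and to -0.54 on the deposited scale. That of Fabp4 was 0.74 ± 0.75 (adjusted p = 0.40), and turned to -0.07 and -0.20.

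Fabp3, the binding protein of heart and skeletal muscle and of brown fat, was at 5.98, 4.10 and 4.21 (E14.5), 8.44 and 8.10 (E16.5), 0.960 and 1.39 (E18.5), 105.1 and 17.2 (P5), 12.4 in 4wk replicate 1, listed at 0 in 4wk replicate 2, and 0.946 and 0.956 (12wk). P5 was above every other age. It rose by 3.15 ± 0.88 from embryo to P5 (limma, adjusted p = 0.029) and fell by 4.04 from P5 to adult (adjusted p = 0.0078), the latter also without the 2 libraries (-3.54). From embryo to adult it was not called with all samples (-0.89 ± 0.69, adjusted p = 0.27), and was lower without 4wk replicate 1 (-1.67, adjusted p = 0.027). The 10 skeletal muscle markers summed to 163 to 396 at E14.5, 1000 to 1070 at E16.5, 6.43 to 52.6 at E18.5, 4.20 to 16.8 at P5, 77.2 in 4wk replicate 1, 3.55 in 4wk replicate 2 and 3.21 to 3.89 at 12wk. Their part in the levels of Fabp3 was not tested.

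Lpl, the lipoprotein lipase that acts at the capillary wall, fell by 1.76 on the log2 scale from P5 to adult (limma, adjusted p = 0.013). It went from 110.0 and 75.5 (P5) to 70.0 and 24.0 (4wk) and 13.9 and 19.8 (12wk). The fall was 1.95 without the 2 libraries. Fabp5, the epidermal binding protein, fell by 1.35 from embryo to P5 (adjusted p = 0.016), and its log2 fold change was -1.36 without the 2 libraries, where the adjusted p was 0.16. The 8 endothelial markers summed to 102 to 150 in the embryo, 112 to 149 at P5, 78.0 to 103 at 4wk and 50.8 to 53.4 at 12wk, all 8 of them at 1 FPKM or more in every sample. The 7 macrophage markers summed to 46.0 to 119, 111 to 122, 165 to 186 and 190 to 205, with 6 or 7 detected, the 7 mesenchyme markers to 1630 to 2010, 1580 to 1650, 732 to 757 and 408 to 501, with 6 or 7 detected, the 7 Schwann cell markers to 86.0 to 110, 84.6 to 89.0, 90.0 to 94.0 and 82.8 to 93.0, with 5 to 7 detected, and the 8 lymphocyte markers to 1.46 to 1.98, 21.6 to 28.5, 2.60 to 18.9 and 9.20 to 9.33, with 0 to 7 detected and Ccl21a at 0 throughout. Markers within a sum could go different ways. Of the Schwann cell markers, Pmp22 was at 45.7 to 54.2 in the embryo and 15.6 to 28.3 in the adult, and Sox10 at 27.2 to 52.1 and 42.9 to 60.1. Of the mesenchyme markers, Col3a1 was at 563 to 902 in the embryo and 27.0 to 192 in the adult, and Dcn at 199 to 376 and 303 to 361. What part these cells have in the members' levels was not tested.

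In sterol synthesis, Sqle, the squalene epoxidase and a rate-limiting enzyme of the pathway (chr15:59146632-59162747 of mm9), was at 44.0, 34.7 and 36.6 (E14.5), 33.0 and 38.4 (E16.5), 41.1 and 39.0 (E18.5), 20.6 and 20.3 (P5), 9.20 and 18.2 (4wk) and 4.21 and 7.06 (12wk). All embryonic samples lay above P5, P5 above 4wk and 4wk above 12wk. Its log2 fold change from embryo to adult was -2.03 ± 0.25 (limma, adjusted p = 1.3e-05) and -2.06 without the 2 libraries. It was also called lower from P5 to adult (-1.17 ± 0.35, adjusted p = 0.025), where the log2 fold change was -1.20 and the adjusted p 0.16 without the 2 libraries, and from 4wk to 12wk (-1.11 ± 0.27, adjusted p = 0.019).

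The other 3 tested sterol members were not called between embryo and adult. The farnesyl diphosphate synthase Fdps (-0.41 ± 0.25), the squalene synthase Fdft1 (-0.56 ± 0.20) and the 7-dehydrocholesterol reductase Dhcr7 (0.54 ± 0.15) fell short of the 2-fold threshold, and on the deposited scale Dhcr7 was at -0.36. Fdps fell by 1.28 from E18.5 to P5 (limma, adjusted p = 0.0022), from 105.0 and 114.4 rescaled FPKM to 44.1 and 45.1. Sterol enzymes outside the members are described below with the other pathway genes.

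Among the regulators, Srebf2, which encodes SREBP-2, the main driver of sterol genes, was at 33.4, 32.5 and 30.0 (E14.5), 27.9 and 39.9 (E16.5), 30.8 and 28.0 (E18.5), 21.7 and 20.3 (P5), 20.1 and 21.0 (4wk) and 17.4 and 22.6 (12wk). The adult and P5 samples were all below the embryonic ones, but the log2 fold change of -0.62 ± 0.11 (limma, adjusted p = 0.00034) was too small for a call, and it became one on the deposited scale (-1.53). Srebf1, which encodes SREBP-1, rose by 1.03 ± 0.17 (adjusted p = 0.00016), from 13.8 to 25.9 in the embryo to 31.7 to 44.6 in the adult, and was at 0.12 on the deposited scale.

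Insig1, which holds the SREBPs in the endoplasmic reticulum and is itself an SREBP target, was chosen after its values were seen, because it was called in all 5 steps from an age to the next. It was at 19.4, 15.96 and 16.4 (E14.5), 32.8 and 40.4 (E16.5), 114.9 and 128.9 (E18.5), 53.4 and 46.9 (P5), 122.4 and 117.8 (4wk) and 51.8 and 62.8 (12wk). Replicates were close while the ages alternated between high and low. The log2 fold changes of the 5 steps were 1.04 ± 0.14, 1.71 ± 0.15, -1.26 ± 0.15, 1.25 ± 0.15 and -1.06 ± 0.15 (limma, adjusted p of 0.00088, 0.00015, 0.00069, 0.00012 and 0.0011). All 5 held without the 2 libraries, and the step from P5 to 4wk was lost on the deposited scale (0.58). The call from embryo to adult (1.12 ± 0.56, adjusted p = 0.096) spans this alternation, with overlapping samples. The Insig1 promoter (RefSeq, GRCm38.p6, chr5:28071162-28071461, plus strand) is shown with CCAAT and CACGTG, 1 match each on either strand, in capitals.
Insig1 promoter: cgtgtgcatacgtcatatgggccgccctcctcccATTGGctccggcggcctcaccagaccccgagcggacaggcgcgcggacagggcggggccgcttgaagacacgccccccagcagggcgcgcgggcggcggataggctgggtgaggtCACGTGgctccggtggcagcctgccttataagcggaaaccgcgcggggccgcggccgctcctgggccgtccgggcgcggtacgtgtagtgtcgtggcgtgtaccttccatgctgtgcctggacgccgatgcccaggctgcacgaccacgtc

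**Figure D4:**
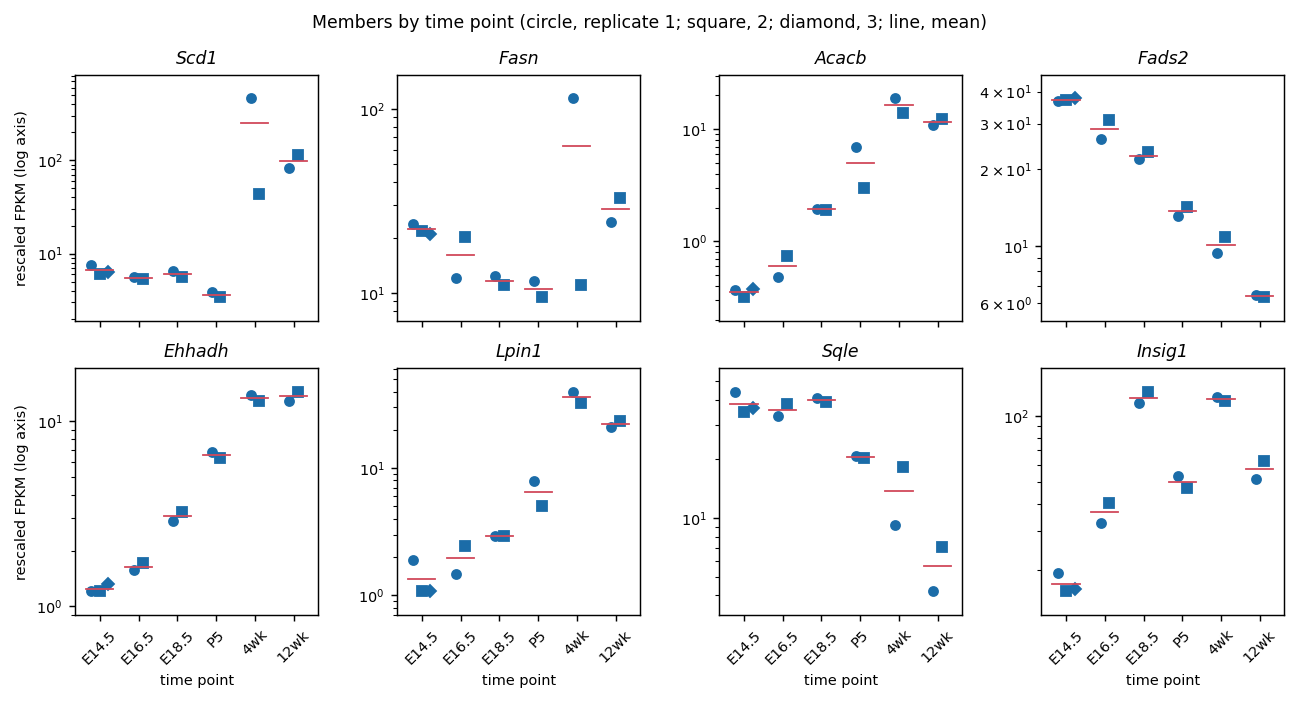
Rescaled FPKM (log axis) of 8 members at the 6 time points, with 1 symbol per sample and a line at the mean. Acacb, Ehhadh and Lpin1 climb with age, Fads2 descends from 37.6 to 6.30, Insig1 alternates between high and low ages, and in Fasn and Scd1 the 4wk circle (replicate 1) lies 10.3-fold and 10.6-fold above the square.

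Ppargc1a, the coactivator PGC-1alpha of mitochondrial and oxidation genes, was at 0.714, 1.72 and 2.00 (E14.5), 2.04 and 3.36 (E16.5), 4.39 and 3.16 (E18.5), 16.7 and 18.2 (P5), 9.67 and 11.7 (4wk) and 7.87 and 4.5 (12wk). P5 stood above all other ages in both samples. It rose from embryo to P5 by 2.49 ± 0.37 (limma, adjusted p = 0.0016) and by 2.55 without the 2 libraries, and its level in the adult was 1.46 ± 0.29 above the embryo (adjusted p = 0.00069). From P5 to adult it was called lower (-1.03 ± 0.40, adjusted p = 0.074), and the log2 fold change was -1.17 and the adjusted p 0.22 without the 2 libraries.

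Pparg, the receptor that drives fat cell differentiation, was at 0.312, 1.52 and 1.65 (E14.5), 1.1 and 1.02 (E16.5), 3.43 and 2.42 (E18.5), 11.9 and 3.97 (P5), 16.98 and 0.821 (4wk) and 0.915 and 1.74 (12wk). Its highest samples were again P5 replicate 1 and 4wk replicate 1, and 3 of the 4 adult samples lay within the embryonic range. It was called in no stage comparison of rescaled values, and its log2 fold change from embryo to adult was 0.55 ± 0.55 (limma, adjusted p = 0.40) and turned to -0.22 without 4wk replicate 1. Ppara, the receptor that induces oxidation genes, was called higher (1.02 ± 0.30, adjusted p = 0.0099), and fell short at 0.63 without the 2 libraries.

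From embryo to P5, 20 of the 48 members were called higher and 5 lower, beside 5.55% and 3.9% of all genes. The samples did not overlap in any of the 25, and overlap was not counted over all called genes here either. The median over the members was 0.94 and over all genes -0.03. Without the 2 libraries 3 members were higher (Cpt1a, Ehhadh and Ppargc1a) and 2 lower (Elovl6 and Scd2), beside 1.71% and 1.45% of all genes, with a median of 0.70 over the members. Leaving out P5 replicate 1 alone gave 3 and 1, and leaving out P5 replicate 2 alone gave 2 lower. On the deposited scale 19 were higher and 6 lower, beside 4.14% and 8.14%.

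From P5 to adult, 6 members were called higher (Acacb, Elovl6, Fasn, Lpin1, Scd1 and Scd2) and 7 lower (Acadl, Cd36, Fabp3, Lpl, Plin1, Ppargc1a and Sqle), beside 6.05% and 8.53% of all genes. In 5 and 4 of these the samples did not overlap, again without a count over all called genes. Without the 2 libraries 6 were higher, of which 5 were the same, and 2 lower, Fabp3 and Lpl, beside 5.24% and 6.78%. The number lower was 0 without P5 replicate 1, 2 without P5 replicate 2 or 12wk replicate 1, 3 without 12wk replicate 2, 4 without E14.5 replicate 2 or either E16.5 sample, and 11 without 4wk replicate 1. On the deposited scale 3 were higher and 16 lower, beside 2.31% and 20.8%. This comparison and that of P5 with the embryo share the P5 samples.

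Between successive ages the counts were small before birth. From E14.5 to E16.5, 4 members were called higher (Acsl1, Elovl7, Insig1 and Pnpla2) and 0 lower, beside 3.64% and 0.751% of all genes, and the same 4 without the 2 fat-rich libraries (beside 3.67% and 0.71%). Only 1 was called without E14.5 replicate 1 or without E16.5 replicate 2. E14.5 replicate 1 was the lowest of all 13 samples in Acsl1 (4.90), Elovl7 (1.16), Pnpla2 (2.82), Fabp4 and Pparg. It was also lowest in Acsl4, Acsl5, Cpt2, Acadl, Acadvl, Hadhb, Ehhadh, Agpat2, Cd36, Dhcr7, Srebf1, Ppara and Ppargc1a, some by small margins. Its acinar markers summed to 29.2, against 274 and 240 in E14.5 replicates 2 and 3. What set this library apart was not tested. From E16.5 to E18.5 only Insig1 was called, beside 1.32% higher and 1.17% lower. Without the 2 libraries 3 were higher (Insig1, Cd36 and Plin1) and Fabp3 lower, beside 1.33% and 1.23%. In all, 4 members were called without either 4wk sample and 2 without E16.5 replicate 2.

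From E18.5 to P5, 8 members were called higher and 4 lower, beside 2.37% and 1.79% of all genes. Those lower were Scd2, Fabp5, Fdps and Insig1, and those higher included Cpt1a, Fabp3 and Ppargc1a, which also passed without the 2 libraries, where 5 were higher and 4 lower, beside 2.01% and 1.56%. Deposited values gave 6 higher and 6 lower, beside 2.07% and 2.97%. The total of 12 was 5 without P5 replicate 1, 6 without E18.5 replicate 2 and 19 without P5 replicate 2. From P5 to 4wk, 11 were higher and 2 lower, beside 6.37% and 8.72%, and Acacb, Elovl7, Fabp5, Insig1, Lpin1, Scd1 and Scd2 were higher and Fabp3 and Lpl lower also without the 2 libraries. These left 7 higher and 7 lower, beside 6.78% and 8.42%, the other 5 lower being Cd36, Dgat2, Lipe, Plin1 and Pparg, in a comparison of 1 sample with 1 whose spread is taken from the other ages. The balance was the opposite on the deposited scale, with 2 higher and 11 lower, beside 2.19% and 22.1%, and the members' median moved from 0.16 to -0.49, while that of all genes moved from -0.06 to -0.53.

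From 4wk to 12wk, 0 members were called higher and 7 lower (limma), beside 3.62% and 3.24% of all genes. Those lower were Acly, which supplies acetyl-CoA from citrate, Acadl, Elovl7, Insig1, Lpl, Plin2, which coats droplets in most cells, and Sqle. Without the 2 libraries Acadl, Elovl7, Insig1 and Sqle were still lower, and 4 members, Dgat2, Fasn, Plin1 and Scd1, were called higher, beside 3.26% lower and 3.05% higher over all genes, with 4wk replicate 2 as the only 4wk sample and its spread taken from the other ages. The total of 7 was 19 without 4wk replicate 2 and 4 without 12wk replicate 1. The steps that meet at an age share its samples.

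Among the 5 ages with 2 samples, more members differed between replicates at P5 and 4wk than at the other ages. E14.5, with 3 samples, was not included, and its replicate 1 was the lowest sample in the members named above. At P5, 13 of 48 members (27.1%) were at least 2-fold higher in replicate 1 on the log2(rescaled FPKM + 1) scale, beside 0.553% of all genes. At 4wk these were 14 (29.2%), beside 4.29%. At E16.5 and E18.5 only 1 member each was that much higher in replicate 1, beside 1.73% and 0.382% of all genes. At 12wk 0 were, beside 0.369%. At least 2-fold lower in replicate 1 were Elovl1 at 4wk, beside 4.83% of all genes, and Plin1 at 12wk, beside 0.464%. At E16.5, E18.5 and P5 0 members were. The same 9 members, Agpat2, Dgat2, Plin1, Lipe, Cd36, Fabp3, Fabp4, Pparg and Ppara, were higher in replicate 1 at both P5 and 4wk (18.8%, beside 0.362% of all genes). Acaca, Fasn and Scd1 were different, with 4wk ratios of rescaled FPKM of 6.12, 10.3 and 10.6 but P5 ratios of 1.31, 1.23 and 1.14. No sterol member and no member of oxidation reached 2-fold at both ages. Across the 48 members, Pearson's r of the P5 and 4wk differences was 0.73, a description over genes that are not independent and that share 4 libraries.

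**Figure D5:**
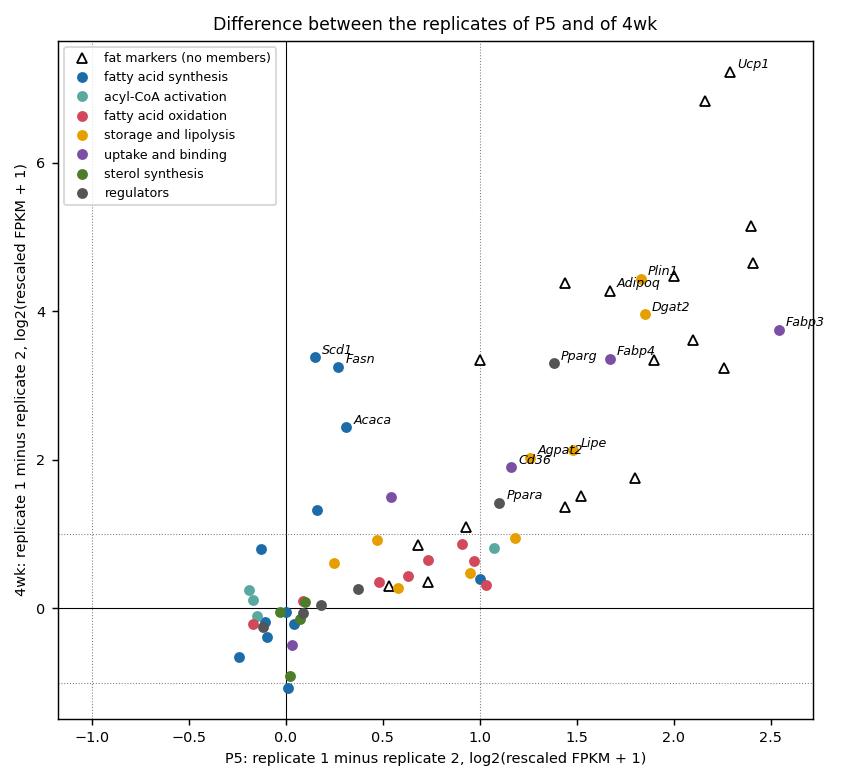
Replicate 1 minus replicate 2 on the log2(rescaled FPKM + 1) scale, at P5 (horizontal) and 4wk (vertical), for the 48 tested members (circles, by role) and the fat markers that are not members (open triangles), with dotted lines at 2-fold. Plin1, Dgat2, Fabp3, Fabp4, Pparg, Agpat2, Lipe, Cd36 and Ppara lie with the triangles at the upper right, while Scd1, Fasn and Acaca lie high at 4wk and near 0 at P5.

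The other genes of these pathways were taken from lists of 117 genes by known role, of which 106 were tested. From embryo to adult 25 were called higher and 12 lower, beside 13.8% and 14.7% of all genes. The median log2 fold change of the 106 was 0.29. Without the 2 libraries 25 were higher and 15 lower, beside 14.1% and 14.54% of all genes. On the deposited scale these were 6 and 36, beside 5.58% and 38.0%. Oxidation genes were 11 higher and 1 lower of 26 (10 and 1 without the 2 libraries, 2 and 3 on the deposited scale), among them the acyl-CoA dehydrogenase Acad11 (2.06 ± 0.19) and the peroxisomal oxidase Acox3 (1.89 ± 0.16) higher, and the brain form Cpt1c lower (-1.71 ± 0.17).

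Sterol genes were 2 higher and 6 lower of 18 (2 and 7 without the 2 libraries, 0 and 14 on the deposited scale). The shares of all genes were 13.8% and 14.7% (14.1% and 14.54% without the 2 libraries, 5.58% and 38.0% on the deposited scale). The sterol carrier Stard4 fell from a mean of 19.9 rescaled FPKM in embryonic samples to 14.6 (P5) and 1.90 in adult ones (-2.79 ± 0.26, limma, adjusted p = 1.1e-06). Sc5d (1.80 ± 0.24) and Ebp (1.32 ± 0.28), which act late in the pathway, were higher, and on the deposited scale they were at 0.89 and 0.41, short of a call.

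The counts of the next 4 lists stand beside 13.8% higher and 14.7% lower of all genes, and 5.58% and 38.0% on the deposited scale. In the synthesis list 2 of 15 were higher and 0 lower (1 and 3 on the deposited scale). The number higher is near the share of all genes and is not read as a trait of this list. Fa2h, which hydroxylates fatty acids for sphingolipids, had a mean of 0.0243 in embryonic, 1.00 in P5 and 50.8 in adult samples (5.57 ± 0.20, limma, adjusted p = 3.4e-10), and the mitochondrial synthase Oxsm followed at 1.01 ± 0.11. In storage 5 of 20 were higher and 2 lower (2 and 3 on the deposited scale), with the lipolysis inhibitor G0s2 (4.03 ± 0.50) and the monoglyceride lipase Mgll (3.91 ± 0.23) in the lead, at 4.07 and 3.98 without the 2 libraries, and Agpat4 (-1.38) and Fitm1 (-1.21) lower. In uptake 1 of 12 was higher, the lipase maturation factor Lmf1 (1.48), and 3 were lower (0 and 8 on the deposited scale), among them the brain-type binding protein Fabp7 (-3.20 ± 0.33) and the transporter Slc27a3 (-2.08 ± 0.25). Of 15 regulators 4 were higher and 0 lower (1 and 5 on the deposited scale), among them Prkaa2, a catalytic subunit of the AMP-activated kinase (1.81 ± 0.28), and Insig2 (1.44 ± 0.27). From embryo to P5 the 106 genes gave 19 higher and 3 lower, beside 5.55% and 3.9% of all genes, with 12 of the 19 in oxidation. They were 11 and 11 on the deposited scale, beside 4.14% and 8.14%. Leaving out the 2 libraries, with 1 P5 sample remaining, gave 2 higher and 1 lower, beside 1.71% and 1.45%, with 0 in oxidation, although the median of the oxidation list was 0.75 there and 0.82 with all samples.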

How the data were processed

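The authors deposited FPKM values, 1 per gene and sample, made from 50 bp single-end reads mapped to mm9 with TopHat2 2.0.13 and Bowtie2 2.2.6, counted with featureCounts and processed with DESeq2 1.10.1, per the study's methods and the submitters' processing notes. Reads that mapped to several places or genes were discarded, which lowers genes with close copies. Deposited values were divided by median-of-ratios factors over the 13039 genes above 0 in every sample, since a few secretory genes took 48.1 to 61.1% of the adult totals (sum of the top 10), and analysed as log2(value + 1), a scale that understates changes of low genes.

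All 13 samples entered 1 limma fit (3.58.1, R 4.3.3, mean-variance trend) with 3 stages, and a second with 6 time points for successive ages, two-sided, adjusted by Benjamini-Hochberg over the 14650 genes that reached 1 FPKM in any sample. The code was tested on simulated data. Reads were recovered from FPKM steps, but only 40.4 to 50.4% of low values lay within 0.05 of whole reads, so no count model was run.

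The members and all gene lists were chosen with earlier results of these data known. Values in every sample are given for the member with the largest rise and fall among non-overlapping calls of each role in the adult and embryo comparison (or the largest change where none was called), and for Fasn, Scd1, Plin1, Fabp4, Pparg, Cd36, Lipe, Ppargc1a, Hmgcs1, Sqle and Srebf2. Other members described by sample were picked after their values were seen. Alternatives were the deposited scale, upper-quartile (75th percentile) rescaling, a pseudocount of 0.1, other filters, an adjusted p below 0.05, no trend, a replicate block, averaged time points, only the groups compared, 4wk or 12wk as the only adult group, each sample left out and, added after seeing the data, P5 replicate 1 and 4wk replicate 1 left out together. Gene positions are from GENCODE vM1 (mm9) and promoters from RefSeq (GRCm38.p6). Tables and figures used Python 3.11.15, numpy 2.4.6, pandas 2.3.3 and matplotlib 3.10.9. The labels call the samples biological replicates. A gene of the pathway lists is not reported here by name.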

Additional observations from a re-analysis of the deposited data

Results flagged for a closer look

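Within the 4 adult and the 7 embryonic samples, 97 groups of values of members were examined for a sample set far apart from the rest, by the gap to its nearest neighbour over the whole range, and 13 stood out. Chance alone would mark about 1 in 20. Of the 13, 10 were in 4wk replicate 1, always on the high side: Acaca at 39.3 rescaled FPKM (other adult samples 5.65 to 8.03), Scd1 at 460.0 (43.3 to 114), Dgat1 at 18.2 (12.5 to 13.2), Plin1 at 23.0 (0.106 to 3.77), Lipe at 19.4 (3.67 to 5.01), Cd36 at 48.4 (8.82 to 13.7), Fabp3 at 12.4 (0 to 0.955), Fabp4 at 863 (83.2 to 105), Pparg at 17 (0.821 to 1.74) and Ppara at 6.36 (1.35 to 1.76). In E18.5 replicate 1, Plin1 was at 4.17 (other embryonic samples 0.0150 to 1.32) and Ppara at 1.27 (0.359 to 0.668), and this library also held the highest Ucp1 of the embryo. In E16.5 replicate 2, Cpt1b was at 0.0604 (0 to 0.0163).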

How the results depend on the processing

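With 2 or 3 samples an age and shallow 4wk libraries, small differences could be missed. Changes below 2-fold were also not called at a low adjusted p, as for Srebf2. On the deposited scale, members called higher and lower were 6 and 10 from embryo to adult and 3 and 16 from P5 to adult, all genes called were 6385, 3385 and, from P5 to 4wk, 3556, and log2 fold changes from embryo to adult turned in Cd36 (-0.54), Fabp4 (-0.20) and Fasn (-0.0014). Without both fat-rich libraries, members higher and lower were 12 and 5, and 3 and 2 from embryo to P5 (462 genes called), 2 were lower from P5 to adult and 4 were called from E16.5 to E18.5, while Cd36, Fabp4 and Pparg turned (-0.16, -0.07 and -0.22, also without 4wk replicate 1 alone). With 12wk as the only adult group 11 were higher, and the 3 genes were at -0.29, -0.14 and -0.15. Members lower from P5 to adult were 3 without the filter, at an adjusted p below 0.05 and with only the groups compared. A pseudocount of 0.1 gave 2 members from E16.5 to E18.5, and 1116, 566, 988, 3723 and 1832 genes called in the 5 successive steps. Only the groups compared gave 3, 8 and 1 members from E16.5 to E18.5, P5 to 4wk and 4wk to 12wk, and 390 genes in the last. The cause of these shifts was not tested. Samples of the same replicate number did not deviate together on average (mean r -0.012 over 30 pairs, from -0.373 to 0.271). The main fit has no replicate block, and this average does not settle pairing between single ages. With the replicate block 4 members were lower from P5 to adult and 16 higher from embryo to adult. Leaving out each sample in turn, the fold changes of Cd36, Fabp4 and Pparg ran from -0.16 to 0.61, -0.07 to 1.05 and -0.22 to 0.88, and the counts were 12 to 21 members higher, 3 to 5 members lower, 4003 to 4402 genes from embryo to adult, 3 to 22 members higher, 1 to 5 members lower, 248 to 1764 genes from embryo to P5, 4 to 7 members higher, 0 to 11 members lower, 1498 to 2285 genes from P5 to adult, 1 to 4 members and 614 to 704 genes from E14.5 to E16.5, 1 to 4 members and 237 to 416 genes from E16.5 to E18.5, 5 to 19 members and 368 to 661 genes from E18.5 to P5, 10 to 16 members and 2080 to 2880 genes from P5 to 4wk and 4 to 19 members and 850 to 1885 genes from 4wk to 12wk.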
